A study of Mus musculus with 12 samples.

Results

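The transcripts of 9 structural myelin protein genes, Mbp, Mobp, Mal, Cnp, Ermn, Cldn11, Mag, Mog and Opalin, were followed through the RiboTag libraries of mouse white matter. The genes were chosen by symbol, as proteins that build or maintain the myelin sheath of the central nervous system, and make up 9 of the 24060 genes in the deposited table. No member was lost to the filter on low counts, which left 14354 genes for testing.

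The mice were male and carried Tie2-Cre:Rpl22-HA, in which Cre under the Tie2 (Tek) promoter, active in endothelial cells and in part of the blood lineage, leads to a form of ribosomal protein Rpl22 with a hemagglutinin (HA) tag. Anti-HA pull-down of ribosomes (IP) therefore aims at RNA under translation in endothelia, and input is RNA of the same white matter sample before the pull-down. Animals 489, 555 and 556 were on the control-fat diet (CFD), with fat at 10% of kcal, and animals 516, 517 and 676 on the high-fat diet (HFD), with fat at 60% of kcal, and each gave an IP and an input library, for 12 libraries in 4 groups of 3. The age of these transgenic mice and their time on the diet are not given in the sources used here.

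Myelin is the membrane that oligodendrocytes wrap around axons, compacted by Mbp at its cytoplasmic faces and kept open at its rims by cytoskeletal proteins such as Cnp and Ermn. Some of its mRNAs, Mbp and Mobp above all, are carried out of the cell body and translated in the processes that form the sheath. The mRNAs of Mbp and Mobp are also abundant in white matter. Endothelial cells are not known as a source of the Mbp and Mobp proteins.

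Library totals ranged from 19567186 to 33660708 counts. Rn45s, the 45S ribosomal RNA precursor, took 38.7% to 42.3% of counts in the CFD IP libraries, 17.1% to 19.1% in the HFD IP libraries and 6.34% to 14.2% in the inputs, and the TMM scaling factors were 0.606 to 0.699, 0.857 to 1.13 and 1.12 to 1.33 in the same order. The 8 oligodendrocyte markers outside the members summed to 439 to 789 CPM (the count as a share of the TMM-scaled library total, in the unit of that name) in the inputs and 449 to 1008 CPM in the IP libraries. Their sum was higher in the IP of 5 of 6 animals, but single markers differed, Sox10 being higher and Aspa lower in the IP of each animal. Summed over 11 endothelial markers, the level was 10.5 to 41.2 CPM in the inputs and 3.86 to 213 CPM in the IP libraries, higher in the IP of 3 of 6 animals, with 1 to 4 of the 11 at 0 counts in each IP library. Tek itself had 0, 0 and 80 counts in the CFD IP libraries of animals 489, 555 and 556, and 0, 1 and 43 counts in the HFD IP libraries of animals 516, 517 and 676. In the inputs Tek had 4, 3 and 0 counts on CFD and 13, 0 and 76 counts on HFD, in the same order of animals. The endothelial sum rose from 22.1 to 213 CPM in animal 556, from 18.5 to 67.0 in animal 516 and from 10.5 to 29.1 in animal 517. It fell in animals 489, 555 and 676. The sum of endothelial markers was thus not higher in the IP of each animal. The paper reports that its Tie2-Cre pull-downs were enriched for endothelial transcripts relative to markers of other perivascular cells. That is a comparison of log fold changes between cell types, a measure unlike the sum per animal given here. The 9 members together summed to 2216 to 3275 CPM in the inputs and 2389 to 5576 CPM in the IP libraries, and their sum was higher in the IP than in the input of 5 of 6 animals. In bulk RNA of this kind, fewer cells of a type and less RNA per cell cannot be told apart.

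Upstream sequences of 3 genes are shown because these genes took different places in the results: Ermn stood lower in the IP than in the input of each animal, Cnp stood higher with the TMM scale, and Mobp carries a run of matches to a motif of the oligodendrocyte lineage. Each is the 250 bases before the RefSeq transcript start on the GRCm38.p6 build, the assembly also called mm10, read 5′ to 3′ on the strand of the gene. Capitals mark matches on either strand to ACAAAG, a core of the motif bound by SOX factors such as Sox10, or to CTGGNAC, a loose spelling of the motif bound by Myrf. The windows lie at chr2:58052865-58053114 on the minus strand for Ermn, at chr11:100574689-100574938 on the plus strand for Cnp and at chr9:120149492-120149741 on the plus strand for Mobp.
Ermn: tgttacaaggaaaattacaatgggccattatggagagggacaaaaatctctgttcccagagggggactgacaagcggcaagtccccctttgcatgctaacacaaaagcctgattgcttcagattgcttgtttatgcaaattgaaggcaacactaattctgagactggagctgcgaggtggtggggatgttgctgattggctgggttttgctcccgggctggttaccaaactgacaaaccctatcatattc
Cnp: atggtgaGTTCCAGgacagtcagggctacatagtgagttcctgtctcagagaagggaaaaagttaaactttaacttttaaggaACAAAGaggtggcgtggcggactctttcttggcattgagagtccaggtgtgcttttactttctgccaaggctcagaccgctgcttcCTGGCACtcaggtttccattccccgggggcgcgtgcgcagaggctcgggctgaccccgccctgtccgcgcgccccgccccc
Mobp: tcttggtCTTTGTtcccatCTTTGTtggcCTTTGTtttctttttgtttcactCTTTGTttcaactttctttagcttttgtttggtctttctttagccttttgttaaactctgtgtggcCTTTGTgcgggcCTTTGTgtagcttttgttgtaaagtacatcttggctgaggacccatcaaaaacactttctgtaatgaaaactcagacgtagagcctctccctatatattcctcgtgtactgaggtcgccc

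Mobp held 6 SOX matches and no Myrf match, Cnp held 1 SOX match and 2 Myrf matches, and Ermn held neither motif in this window. The SOX letters occurred in 16.5% and the Myrf letters in 16.1% of 32851 RefSeq promoter windows of the same length. Of 10 member windows, for 8 genes, 5 held the SOX letters (those of Cnp, Mobp and Opalin and 2 of 3 windows of Mag) and 4 held the Myrf letters (those of Cnp and Mog and 2 of 3 of Mag). No window was matched for Mbp. The 2 matching windows of Mag overlap and hold the same sites, so the counts of windows include these sites again. Within a window none of the matches overlapped another, and a match describes letters and not a bound site.

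Per kilobase of transcript, the order of levels over the 12 libraries was Mbp, Mobp, Cnp, Mal, Ermn, Cldn11, Mog, Mag and Opalin. Mbp averaged 457 CPM per kilobase, Mobp 260, Cnp 122 and Mal 96.6, while Ermn and Cldn11 lay close together at 41.8 and 40.9. Mog, Mag and Opalin closed the order at 21.1, 16.2 and 13.2 CPM per kilobase. Mbp provided between 50.3% and 80.6% of all counts of the 9 genes in a library.

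Neighbours in this order were often not separated. Mbp lay above Mobp without overlap in the CFD input, CFD IP and HFD IP groups, but their ranges overlapped in the HFD input. Cnp and Mal overlapped in each of the 4 groups and changed places between the diets, and Ermn and Cldn11 overlapped in each group too, with Ermn above in both inputs and Cldn11 above in both IP groups. Mog, Mag and Opalin overlapped throughout.

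**Figure D1:**
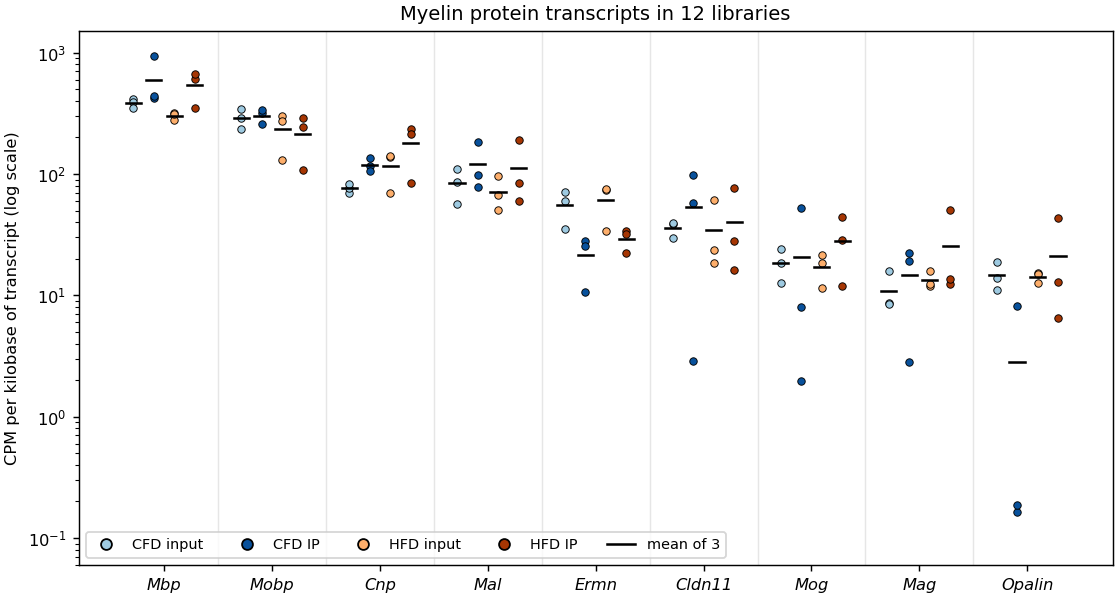
Level of each gene in each of the 12 libraries, in CPM per kilobase of transcript on a log axis; points are libraries, colours are the 4 groups and short lines are means of 3. Mbp has the highest mean in each group, and the lowest mean is that of Opalin in the IP groups and of Mag in the inputs. The mean of Ermn lies lower in IP than in input of the same diet, and the CFD IP points of Opalin, Cldn11, Mog and Mag are the most scattered.

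The scatter between animals was larger in the IP than in the input. The median coefficient of variation of the 9 genes was 27.1% in the CFD input and 32.7% in the HFD input, against 48.3% in the CFD IP and 57.6% in the HFD IP. Over all genes tested the medians were 55.1%, 41.7%, 75.6% and 73.2% in the same order, so the median member varied less than the median gene in each group. Single members lay above the median gene, namely Mog, Cldn11 and Opalin in the CFD IP, Mag, Cldn11 and Opalin in the HFD IP and Cldn11 in the HFD input. Within the CFD IP, the highest library exceeded the lowest by 49.95-fold for Opalin, 34.3-fold for Cldn11 and 26.8-fold for Mog, but by 1.29-fold for Cnp and 1.30-fold for Mobp.

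The first question was whether myelin transcripts differed between the IP and the input of the same animals. On CFD, 0 of 9 members were called at an adjusted p under 0.1 (edgeR's quasi-likelihood test, Benjamini-Hochberg over all genes), where 27 of 14354 genes, 0.188%, were called. On HFD, 0 of 9 were called, where 2 genes, 0.0139%, were called. At an unadjusted p under 0.05 the same 2 members, Mbp and Ermn, passed on either diet, among 1697 genes on CFD and 935 on HFD. DESeq2 called 1 member, Ermn, among 816 genes on CFD, 6.03% of those it gave an adjusted p, and 0 members among 160 genes on HFD, 12.6% of 1274 genes with an adjusted p, which included 5 of the 9 members. With the animal as a replicate block, edgeR called 1 member, again Ermn, among 139 genes (0.968%) on CFD and 0 members among 24 genes (0.167%) on HFD.

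On either diet 7 of 9 members had a fitted fold change above 0, the exceptions being Ermn and Opalin on CFD and Ermn and Mobp on HFD. The median log2 fold change of the members was 0.43 on CFD and 0.62 on HFD, against -0.01 over all genes on either diet. Scaled by library totals alone, 0 of 9 were above 0 on CFD and 6 of 9 on HFD, but the medians of all genes were then -0.84 and -0.41, and 7 of 9 members lay above that median on either diet. With the replicate block 5 of 9 were above 0 on CFD, with a median of 0.07 against -0.19 over all genes. Without animal 556, 3 of 9 were above 0 on CFD, with a median of -0.15, and on HFD the median was 0.28 without animal 516 and 0.30 without animal 517.

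Ermn encodes ermin, an actin-binding protein of the cytoplasmic rims of the sheath. Its counts in the inputs were 2914, 7067 and 5730 for CFD animals 489, 555 and 556 and 9359, 7333 and 3371 for HFD animals 516, 517 and 676. In the IP they were 1916, 1870 and 673 on CFD and 3461, 3390 and 2573 on HFD. On the CPM scale the inputs lay between 120 and 265 and the IP libraries between 37.7 and 120. In both diets each IP library was below the input of its own animal. On CFD the highest IP stood at 99.0 CPM and the lowest input at 125 CPM. The CFD IP averaged 75.7 ± 33.2 CPM against 194 ± 63.3 CPM in the CFD input, and the HFD IP 103 ± 22.1 CPM against 215 ± 82.6 CPM in the HFD input (SD, n = 3 each). The log2 fold change of IP over input was -1.36 on CFD (SE 0.42, edgeR adjusted p = 0.240) and -1.06 on HFD (SE 0.41, edgeR adjusted p = 0.653).

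The Ermn difference on CFD lay near the threshold and its call turned on the analysis. With the animal as a replicate block it was -1.42 (edgeR adjusted p = 0.0953), with no filter -1.36 (edgeR adjusted p = 0.0652, 1.7% of genes called), and with DESeq2 -1.34 (DESeq2 adjusted p = 0.0569), each of which called it. Scaled by library totals alone it was -2.15 (edgeR adjusted p = 0.00962), in a setting where the median of all genes was itself -0.84 and 7.06% of genes were called. Leaving out animal 556 reduced the fold change to -0.99 (edgeR adjusted p = 0.596).

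Mbp encodes myelin basic protein, which holds the cytoplasmic faces of compact myelin together. Its input counts were 46386, 53774 and 46297 on CFD and 48388, 42368 and 42270 on HFD, in the order of animals given above. Its IP counts were 86931, 42587 and 37610 on CFD and 84022, 97283 and 55302 on HFD. As CPM, the IP libraries stood at 4493, 2057 and 2107 on CFD and 2912, 3211 and 1684 on HFD, and the inputs at 1989, 1895, 1688, 1344, 1533 and 1501. Each IP library was above its own input on this scale, although animals 555, 556 and 676 differed little between the 2 fractions. The log2 fold change was 0.64 on CFD (SE 0.29, edgeR adjusted p = 0.400) and 0.83 on HFD (SE 0.29, edgeR adjusted p = 0.609). Without animal 489 the CFD value was 0.21, and scaled by library totals alone it was -0.17.

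Cnp encodes the cyclic nucleotide phosphodiesterase that keeps cytoplasmic channels of the sheath open. Its input counts were 3776, 5090 and 5333 on CFD and 11513, 9029 and 4598 on HFD. Its IP counts were 5206, 5126 and 5686 on CFD and 15932, 15200 and 6396 on HFD. In CPM the CFD IP stood at 278 ± 36.4 and the CFD input at 179 ± 16.3, and the HFD IP at 416 ± 193 and the HFD input at 270 ± 92.4 (SD, n = 3 each). The log2 fold change was 0.64 on CFD (SE 0.36, edgeR adjusted p = 0.481) and 0.62 on HFD (SE 0.36, edgeR adjusted p = 0.834). The Cnp gene overlaps Dnajc7, a chaperone gene on the opposite strand, over 9058 bases, and the use of strand in the counting is not stated, so reads there cannot be assigned with certainty. Dnajc7 had 765 to 2835 counts a library and log2 fold changes of -0.80 on CFD (edgeR adjusted p = 0.450) and -0.25 on HFD (edgeR adjusted p = 0.974), of the opposite sign to Cnp. The Mbp gene likewise overlaps Gm52337 over 18076 bases and Rpl21-ps8 over 547 bases on the opposite strand, with the same limit.

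Mobp is an abundant protein of compact myelin and Mal a raft proteolipid of myelin membranes. Mobp had 5506 to 16326 counts in the inputs and 5342 to 12452 in the IP libraries, with log2 fold changes of 0.06 on CFD and -0.15 on HFD. Mal had 3701 to 8122 counts in the inputs and 3976 to 15096 in the IP libraries, with log2 fold changes of 0.52 and 0.65, of the size of those of Cnp but with paired ratios from -0.17 to 1.72. The 95% intervals of these 4 fold changes all included 0, that of Mobp on CFD running from -0.67 to 0.80 and that of Mal on HFD from -0.21 to 1.52.

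The transcripts of proteins at the surfaces and seams of the sheath were uneven in the CFD IP. Cldn11, the tight junction protein of central myelin, had 104, 3820 and 1921 counts in the CFD IP against 1681, 2108 and 1514 in the CFD input. Mog, an immunoglobulin-like protein of the outermost surface, had 263, 69 and 1593 counts in the CFD IP against 736, 1168 and 595 in the CFD input. Mag, the adhesion protein facing the axon, had 132, 955 and 969 counts in the CFD IP against 893, 597 and 560 in the CFD input. The low library was that of animal 489 for Cldn11 and Mag and that of animal 555 for Mog, while the paired inputs were not low. On HFD, Cldn11 had 874 to 4359 counts in the IP, Mog 665 to 2289 and Mag 920 to 3547, and for each gene the IP and input ranges overlapped. Their log2 fold changes lay between 0.17 and 0.94 over both diets, with standard errors of 0.70 to 0.81.

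Opalin, a membrane glycoprotein of oligodendrocytes, had 140, 3 and 3 counts in the CFD IP against 230, 350 and 461 in the CFD input. Its IP over input ratio was 0.734 (95% interval from counting, 0.59 to 0.909) in animal 489, 0.0117 (0.00241 to 0.0346) in animal 555 and 0.01 (0.00206 to 0.0294) in animal 556. On HFD it had 1123, 348 and 191 counts in the IP against 488, 371 and 317 in the input, so that the IP was above the input in animal 516 alone. The log2 fold changes were -2.37 on CFD (SE 1.30, edgeR adjusted p = 0.470) and 0.56 on HFD (SE 1.23, edgeR adjusted p = 0.983). The intervals cover counting error only, since these reads carry no molecular identifiers and several can come from 1 molecule.

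Compared animal by animal, 3 genes lay on 1 side of their inputs throughout. The log2 ratio of IP over input, with 0.5 CPM added to both, was above 0 in 6 of 6 animals for Mbp (mean 0.66 ± 0.51, SD over 6 animals) and Cnp (0.59 ± 0.20), and below 0 in 6 of 6 for Ermn (-1.20 ± 0.74). Over all genes tested, 4.09% were above their input in all 6 animals and 4.15% below, so 2 of 9 members stood in the first class and 1 of 9 in the second. For Ermn the 6 ratios were -0.33, -1.46 and -2.45 for CFD animals 489, 555 and 556 and -1.11, -1.24 and -0.61 for HFD animals 516, 517 and 676. For Cnp they lay between 0.25 and 0.79, the narrowest range of the 9 genes.

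The other 6 genes were mixed. Mag was above its input in 5 of 6 animals, Mal, Mog and Cldn11 in 4, Mobp in 2 and Opalin in 1. For Mog and Cldn11 on CFD the mean of the paired ratios, -0.87 and -0.45, had the opposite sign to the fitted fold changes, 0.17 and 0.56, as the ratio weights each animal equally and the fit follows the group mean. With library totals alone as the scale, Mbp and Cnp were each above 0 in 3 of 6 animals, so their direction rested on the scaling, while Ermn was below 0 in 6 of 6. On that scale 0.439% of all genes were above and 13.9% below their input in all 6 animals. With totals that leave out Rn45s and Lars2, Mbp and Cnp were above 0 in 6 of 6 animals, the smallest Mbp ratio being 0.0014, and Ermn was below 0 in 6 of 6, where 2.09% of all genes were above and 6.65% below in all 6.

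**Figure D2:**
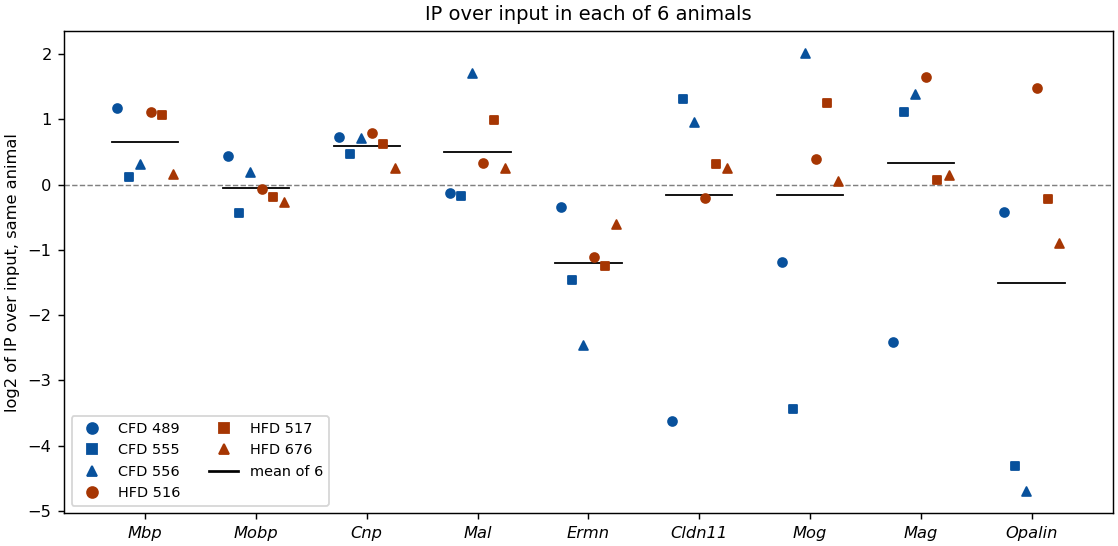
The log2 ratio of IP over input for each gene in each of 6 animals (TMM scaling, 0.5 CPM added); blue symbols are CFD animals, brown symbols HFD animals and lines the mean of 6. Mbp and Cnp lie above 0 and Ermn below 0 in each animal, and the CFD animals spread down to -4.69 for Opalin and -3.63 for Cldn11.

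The make-up of the myelin transcripts within a library does not depend on how libraries are scaled. As a share of the summed level of the 9 genes per kilobase, Ermn was 3.86% to 7.94% in the inputs and 0.867% to 3.25% in the IP libraries, and was lower in the IP of 6 of 6 animals. Mobp was also lower in the IP of 6 of 6 animals, with 19.9% to 32.5% in the inputs and 15.9% to 27.0% in the IP. Cnp was higher in the IP of 6 of 6 animals, with 7.11% to 14.7% in the inputs and 7.72% to 17.1% in the IP. Mbp was higher in 5 of 6 animals, with 30.0% to 47.5% in the inputs and 35.4% to 62.4% in the IP, the exception being animal 556. The shares of a library have a fixed sum, so a higher share of Mbp lowers those of the other genes. On the TMM scale Mobp itself was above its input in 2 of 6 animals, with a mean log2 ratio of -0.05.

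The ratio of Ermn to single other members showed the same direction. The log2 ratio of Ermn to Mbp counts differed, as IP minus input, by -1.87 ± 0.72 (SD over 6 animals), that to Cnp by -1.80 ± 0.82, that to Mal by -1.71 ± 1.39 and that to Mobp by -1.16 ± 0.79, and each was lower in the IP of 6 of 6 animals. Against Mag and Cldn11, Ermn was lower in 5 of 6 animals, against Mog in 4 and against Opalin in 2. These are descriptions, since a change in Ermn is common to each of these ratios.

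**Figure D3:**
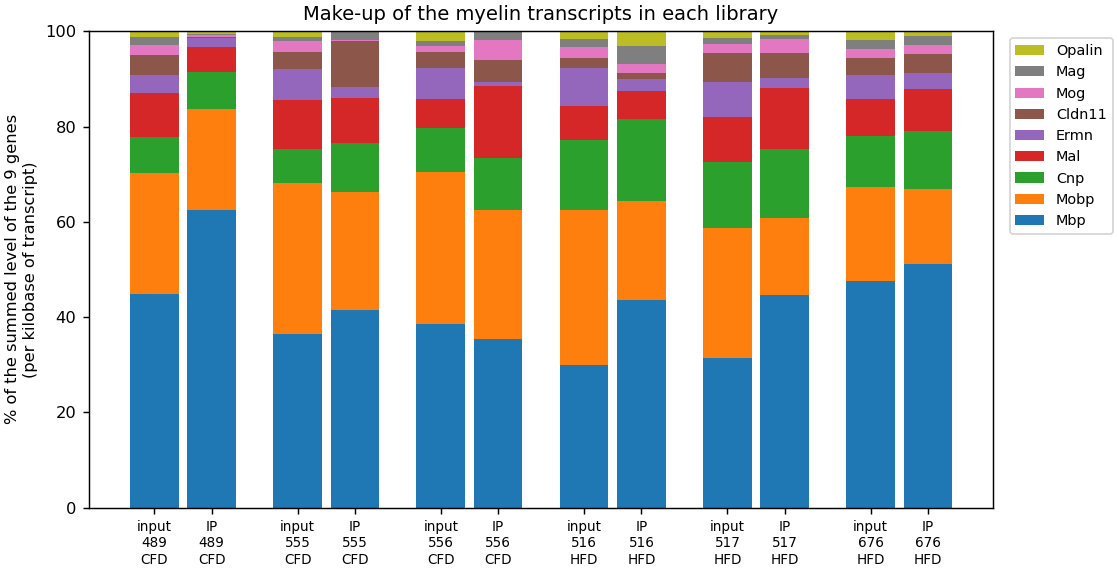
Share of each gene in the summed level of the 9 genes, in % of CPM per kilobase, for the input and the IP library of each animal; each bar adds to 100%. The Ermn segment is narrower in the IP than in the input of each animal, and Mbp ranges from 30.0% in an input to 62.4% in an IP library.

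The second question was whether diet altered these transcripts. Between HFD and CFD inputs, which hold whole white matter, 0 of 9 members and 0 of 14354 genes, 0%, were called by edgeR at an adjusted p under 0.1. At an unadjusted p under 0.05 there were 0 members and 292 genes, and DESeq2 called 0 members and 31 genes (0.225%). The log2 fold changes of the members lay between -0.35, for Mbp, and 0.60, for Cnp, and the median was -0.06 against -0.00 over all genes.

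Mbp was the only member whose input groups did not overlap between the diets. The HFD inputs stood at 1344, 1533 and 1501 CPM and the CFD inputs at 1989, 1895 and 1688 CPM, the HFD animals all lower, as were 4.33% of all genes, with a further 6.05% higher. The means were 1460 ± 101 CPM on HFD and 1857 ± 154 CPM on CFD (SD, n = 3 each), with a log2 fold change of -0.35 (95% interval -0.95 to 0.26, edgeR adjusted p = 1). The groups also lay apart when scaled by library totals, at 1778 to 1996 against 2050 to 2371 CPM, a scale on which the share of all genes was not counted.

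Cnp differed by more but less evenly. Its inputs on HFD stood at 320, 327 and 163 CPM for animals 516, 517 and 676 and on CFD at 162, 179 and 194 CPM for animals 489, 555 and 556, so that 2 of the 3 HFD animals lay above the CFD range and the third at its lower end. The log2 fold change was 0.60 (95% interval -0.15 to 1.34, edgeR adjusted p = 1). For Ermn the log2 fold change was 0.15, for Opalin -0.03, for Mobp -0.30 and for Mal -0.24, each with an interval that included 0.

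Between HFD IP and CFD IP, 0 of 9 members were called, where 8 of 14354 genes, 0.0557%, were called by edgeR at an adjusted p under 0.1. At an unadjusted p under 0.05 there was 1 member, Opalin, among 1565 genes, and DESeq2 called 0 members among 770 genes (5.79%). No member had IP groups apart between the diets, where 5.94% of all genes had HFD higher and 4.66% HFD lower. For Opalin, whose IP counts are given above, the log2 fold change was 2.89 (95% interval 0.15 to 5.64, edgeR adjusted p = 0.434), and the lowest HFD library, at 5.82 CPM, was below the highest CFD library, at 7.24 CPM. It ranged from 1.75 without animal 516 to 6.85 without animal 489. The next changes in size were 0.80 for Mag, 0.58 for Cnp, and -0.51 for Mobp, with edgeR adjusted p of 0.682, 0.547 and 0.598. Mbp stood at 2886 ± 1392 CPM on CFD and 2602 ± 809 CPM on HFD (SD, n = 3 each), a log2 fold change of -0.15 with a 95% interval from -0.75 to 0.45.

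The Rn45s share moved with diet in the IP libraries, as given above, and its part in these values was not tested. Scaled by library totals alone, the median of all genes between HFD IP and CFD IP was 0.61, with 70.7% of all genes above 0. On that scale 9 of 9 members were above 0 in place of 5 of 9, and 5 of 9 lay above the median of all genes. Cnp, Ermn and Opalin then had HFD libraries all above the CFD libraries, but the share of all genes that did so was not counted. The diets overlapped for each of these genes with totals that leave out Rn45s and Lars2, as they did with the TMM scale. With the TMM scale the median of all genes was 0.03 and that of the members 0.44, but the latter was 0.04 without animal 516 and -0.04, with 4 of 9 above 0, without animal 517.

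The difference in the IP over input effect between the diets was tested as an interaction. By edgeR 0 of 9 members and 0 of 14354 genes, 0%, were called, with unadjusted p from 0.114 for Opalin to 0.975 for Cnp among the members, 770 genes at an unadjusted p under 0.05, and 0 members and 121 genes (0.877%) called by DESeq2. The interaction was 0.30 on the log2 scale for Ermn (95% interval -0.90 to 1.51) and 0.20 for Mbp (-0.65 to 1.05). For Ermn a difference of the size of its IP over input effect lay within the interval toward a weaker effect on HFD, but not toward a stronger one.

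**Figure D4:**
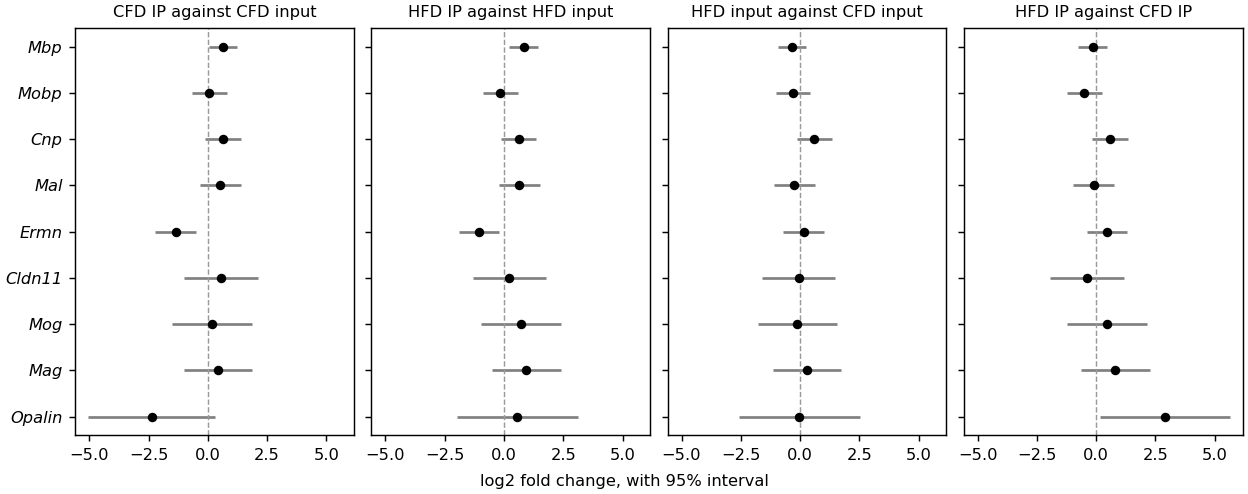
Log2 fold change of each gene (points) with its 95% interval (lines) in the 4 comparisons of groups, from edgeR. Ermn lies below 0 and Mbp above 0 in both comparisons of IP with input, with intervals that leave out 0 before adjustment, and no gene passes the adjusted threshold.

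A further 40 myelin genes, listed by role, showed whether the members moved with the rest of the myelin programme. None was called by edgeR with the TMM scale in any of the 5 comparisons. DESeq2 called 2, Bcas1 and Nfasc, of the 14 with an adjusted p for IP against input on HFD, where 12.6% of 1274 genes were called. It called 0 of 40 in the other comparisons. With library totals alone edgeR called 6 for IP against input on CFD (Car2, Cryab, Gpm6b, Hnrnpa2b1, Qk and Sept4), where 7.06% of all genes were called, and 3 for HFD IP against CFD IP (Gpm6b, Hnrnpa2b1 and Omg), where 1.7% were. On CFD, 23 of 40 were above their input and 7 had an unadjusted p under 0.05, where 49.1% and 11.8% of all genes did. Their median log2 fold change was 0.22 against 0.43 for the members and -0.01 over all genes. On HFD, 31 of 40 were above their input and 6 had an unadjusted p under 0.05, where 49.4% and 6.51% of all genes did. Their median was 0.40 against 0.62 for the members and -0.01 over all genes. Between the inputs of the diets the median of the 40 was -0.12, with 1 gene at an unadjusted p under 0.05, where 2.03% of all genes were. Between the IP libraries it was -0.04, with 4 such genes, where 10.9% of all genes were. Scaled by library totals alone, 6 of 40 were above their input on CFD and 15 on HFD, but 23 and 30 of 40 were above the median of all genes.

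Among the genes of compact myelin and its membrane, Gpm6b, a membrane proteolipid of neural cells, had a log2 fold change of -0.72 on CFD (edgeR adjusted p = 0.338) and Tspan2, a tetraspanin of myelinating cells, 0.80 (edgeR adjusted p = 0.381). Of this list 4 of 9 were above the input on CFD and 7 of 9 on HFD with the TMM scale, on which the counts of the other lists also rest. On that scale 49.1% of all genes were above the input on CFD and 49.4% on HFD.

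Of the genes of the paranode, adhesion and glial junctions, 7 of 9 were above the input on either diet. Kcnj10, the inward rectifier channel of glia, had 1.14 on CFD (edgeR adjusted p = 0.314), Nfasc, an adhesion protein of node and paranode, 0.91 on HFD (edgeR adjusted p = 0.623), and Cntn2, which anchors the juxtaparanode, 1.07 on HFD (edgeR adjusted p = 0.656). Of the cytoskeletal and cytoplasmic genes, 4 of 9 were above the input on CFD and 7 of 9 on HFD. Bcas1, a marker of oligodendrocytes as they begin to myelinate, had 0.72 on CFD and 0.97 on HFD (edgeR adjusted p of 0.393 and 0.583), and -0.83 between the inputs of the diets (edgeR adjusted p = 1). Car2, the carbonic anhydrase of oligodendrocytes, had -0.93 on CFD (edgeR adjusted p = 0.370) and Aspa, which cleaves N-acetylaspartate, -1.93 on HFD (edgeR adjusted p = 0.727).

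Of the transcription factors of myelin genes, 6 of 8 were above the input on CFD and 7 of 8 on HFD, with medians of 0.69 and 0.61. Of the 5 genes for transport and splicing of myelin mRNAs, 2 were above on CFD and 3 on HFD. Hnrnpa2b1, which binds the transport signal of Mbp mRNA, had -0.76 on CFD (edgeR adjusted p = 0.386) and Qk, which holds myelin mRNAs in the nucleus and guides their splicing, -0.87 on HFD (edgeR adjusted p = 0.692).

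**Figure D5:**
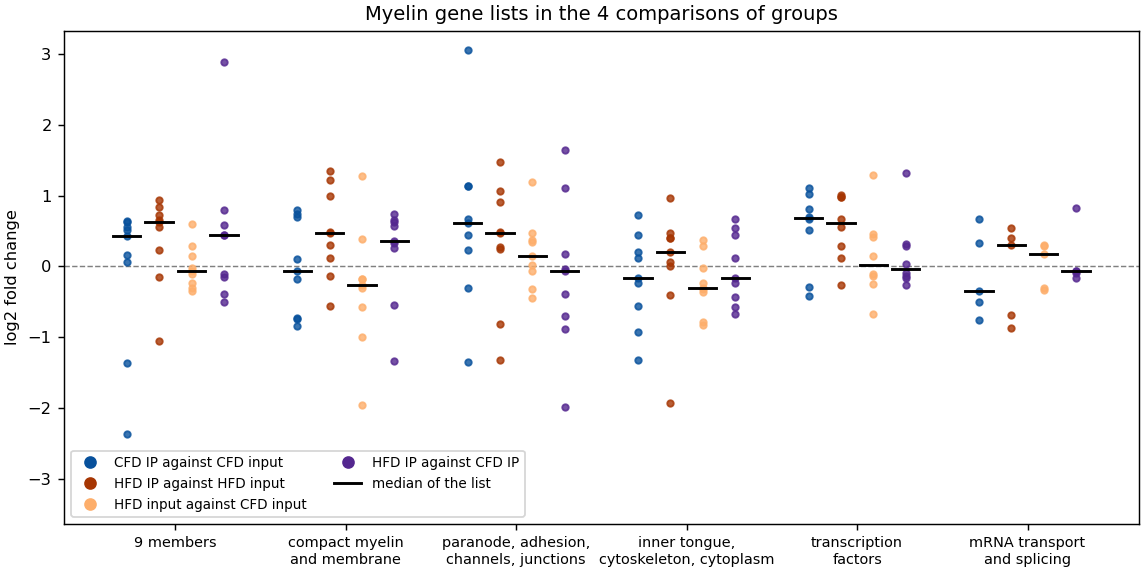
Log2 fold changes of the 9 members and of 5 lists of other myelin genes in the 4 comparisons of groups; points are genes and black lines the median of a list. Medians of the members are 0.43 and 0.62 for IP against input on CFD and HFD, and single genes of each list lie on both sides of 0.

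The members were not nearest to each other across the libraries. Likeness was measured as the root mean square difference of centred log2 CPM over the 12 libraries, against the mean profile of the 9 genes. Among the nearest genes outside the members were Rc3h1 (0.20), Nap1l1 (0.20), Dync1li2 (0.24), Ccdc104 (0.24), Ctxn1 (0.25), Add3 (0.26) and Cap2 (0.27), none of them a myelin gene of the lists used here. The members themselves ranked from 487 (Cnp) and 937 (Mobp) to 10275 (Opalin) among the genes tested, although each contributes to that mean. For no member was another member among its 500 nearest genes, the closest rank being 544, of Mbp from Cnp.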

How the data were processed

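White matter RNA of 6 mice was sequenced as 12 libraries, whose groups and animal numbers came from the labels. The authors aligned reads to mm10 with STAR, and the submitters' processing notes also name HTSeq. Different library kits are named in the labels and in the methods of the study. The deposited counts are whole reads per gene, not normalized, and strand use is not stated. The deposited FPKM gave only gene lengths, and the deposited normalized signal was not used. The authors' deposited log2 fold changes and p-values hold their own comparisons and were not used.

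The analysis used edgeR 4.0.16 in R 4.3.3. Genes passed filterByExpr (minimum count 10, minimum total 15), libraries were scaled by TMM, and glmQLFit was fitted to 4 group means over the 12 libraries without a block. P-values were adjusted by Benjamini-Hochberg over 14354 genes and called under 0.1, as in the study. Alternatives used limma 3.58.1 and DESeq2 1.42.0. IP and input pair by mouse number in the labels, and their deviations correlated at 0.00641 to 0.19 across genes. Each group holds 3 mice by their numbers in the labels. The p-values of the main fit rest on a spread estimated over all 4 groups. That fit treats the IP and the input of a mouse as separate samples. The script was tested on simulated data.

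The members and lists were chosen with earlier results of these data known. Other myelin genes are named where they had the smallest p in either direction of a comparison, and some genes that met a rule for naming are not reported here. Sequences and coordinates are from RefSeq, GRCm38.p6, matched by symbol.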

Additional observations from a re-analysis of the deposited data

How the results depend on the processing

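The count of genes called depended on the scaling, the tool and the filter. For CFD IP against CFD input it was 27, and 1014 with library totals, 312 with no filter, 816 with DESeq2, 14 with only the libraries compared, 139 with the replicate block, 2 with totals without Rn45s and Lars2 and no scaling factor (chosen after seeing the data), 3 at an adjusted p under 0.05, and 2 to 52 when an animal was left out. For HFD IP against CFD IP it was 8, and in the same order 244, 219, 770, 3, 5, 0, 2 and 1 to 20, with 5 when Rn45s and Lars2 were left out. For HFD IP against HFD input it was 2, and 79 with no filter, 160 with DESeq2, 24 with the block, 0 with only the libraries compared, without Rn45s and Lars2 or with totals without them, and 0 to 35 when an animal was left out. Between the inputs it was 0, and 3 with no filter, 31 with DESeq2 and 0 to 1 when an animal was left out. For the interaction it was 0, and 44, 121 and 0 to 1 in the same order, and the fit to only the libraries compared is the main fit there. The count of members called was 0, except 1 (Ermn) for CFD IP against CFD input with library totals, no filter, DESeq2 and the replicate block. The block, which pairs the libraries of a mouse, changed no other call of a member, but turned Mog to -1.01 and Cldn11 to -0.16 for IP against input on CFD and Cldn11 to 0.36 between the IP groups.

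With library totals as the scale, IP against input on CFD turned to -0.17 for Mbp, -0.74 for Mog, -0.77 for Mobp, -0.43 for Mag, -0.19 for Cnp, -0.26 for Cldn11 and -0.32 for Mal, and on HFD to -0.16 for Cldn11. HFD IP against CFD IP turned to 0.37 for Mbp, 0.0103 for Mobp, 0.19 for Cldn11 and 0.47 for Mal, and the inputs to 0.0561 for Mog, 0.0927 for Cldn11 and 0.12 for Opalin. With totals without Rn45s and Lars2, IP against input on CFD turned to -0.094 for Mog and -0.16 for Mobp, and the inputs to 0.0035 for Mog, 0.0451 for Cldn11 and 0.0789 for Opalin. These scalings move the median of all genes. When an animal was left out, IP against input on CFD ranged from -0.12 to 0.32 for Mobp, from -0.15 to 1.17 for Cldn11, from -2.12 to 0.97 for Mog, from -0.16 to 1.27 for Mag and from -0.15 to 0.91 for Mal, and on HFD from -0.53 to 0.90 for Opalin. HFD IP against CFD IP ranged from -0.34 to 0.30 for Mbp, from -0.19 to 1.23 for Mag, from -0.74 to 0.34 for Mal, from -0.11 to 2.51 for Mog and from -1.25 to 0.41 for Cldn11. The inputs ranged from -0.10 to 0.44 for Ermn, from -0.77 to 0.25 for Cldn11, from -0.33 to 0.13 for Mog, from -0.52 to 0.0098 for Mal and from -0.21 to 0.19 for Opalin. The cause was not tested.

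Ermn for IP against input kept its sign on both diets in each of these fits, from -2.15 to -0.99 on CFD and from -1.49 to -0.94 on HFD. Among the mean ratios of the 6 animals, library totals moved Mbp to 0.04, Mobp to -0.67 and Cnp to -0.03, and totals without Rn45s and Lars2 moved Cnp to 0.36. Without gene length Mog and Mag changed places in the order of levels. Depth limited Opalin most, at 3 counts in 2 CFD IP libraries.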

Other observations

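The levels of the members in the IP and the input of a mouse were compared by the sign of their deviation from the group mean. In each of the 3 HFD animals 8 of 9 members deviated to the same side in both fractions, and in the CFD animals 2, 3 and 3 of 9 did. The share of all genes that did so was not counted. Deviations from a mean of 3 animals also depend on each other, and no difference between the diets was tested here. Markers of astrocytes summed to 3765 to 5572 CPM in the inputs and 3945 to 9973 CPM in the IP libraries, higher in the IP of 5 of 6 animals, and those of neurons to 7549 to 13430 CPM and 5449 to 10090 CPM, higher in the IP of 1 of 6. Markers of oligodendrocyte progenitors summed to 71.1 to 111 CPM in the inputs and 38.9 to 146 CPM in the IP libraries, those of microglia to 99.9 to 198 and 85.1 to 306, and those of pericytes to 4.16 to 37.95 and 2.27 to 33.74, higher in the IP of 3, 4 and 2 of 6 animals. Hemoglobin and related blood markers summed to 1.77 to 21.3 CPM in the inputs and 0.033 to 3.54 CPM in the IP libraries, lower in the IP of 6 of 6.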
